A study of Rattus norvegicus with 16 samples.

Results

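Myosins and the enzymes that switch their regulatory light chain on and off were followed in cultured rat aortic smooth muscle cells after knockdown of Nat10. The set holds 10 genes chosen by name from the 32883 Ensembl genes of the deposited expression table: the heavy chain genes Myh11, Myh9 and Myh10, the light chain genes Myl9 and Myl6, the kinase gene Mylk, the phosphatase subunit gene Ppp1r12a, and Rhoa, Rock1 and Rock2. Rows with the same Ensembl identifiers were then taken from the peak lists. The rule uses names and no measured value, but the names were chosen with earlier results of these data known. The cells were primary aortic vascular smooth muscle cells of Rattus norvegicus, grown in medium with 20% fetal bovine serum. In the knockdown group (genotype label NAT10 knockdown) they carried for 48 h the adenovirus Ad-shRNA-NAT10, which expresses a hairpin that targets Nat10. In the control group (genotype label wild type) they carried for the same time a control adenovirus, Ad-shRNA-con, so both groups had been infected. Each group had 3 input RNA libraries and 3 libraries of 100 to 200 nt fragments immunoprecipitated with an antibody to N4-acetylcytidine (ac4C), the modified cytidine that the NAT10 enzyme places on RNA. Another 3 libraries held RNA that came down with the NAT10 protein from untreated wild-type cells (NAT10 RIP). The age, sex and number of the donor rats, and any uninfected input group, do not appear in the labels.

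Smooth muscle contracts when a calcium and calmodulin activated kinase, the product of Mylk, phosphorylates the regulatory light chain of myosin II. A phosphatase whose targeting subunit is the product of Ppp1r12a removes that phosphate. The small GTPase RhoA activates the kinases ROCK1 and ROCK2, which inhibit the phosphatase by phosphorylating its targeting subunit, so that tension can be held at a lower calcium level. Contractile smooth muscle is known for the heavy chain of Myh11, whereas Myh9 and Myh10 encode non-muscle heavy chains found in most cells, and the RhoA and ROCK pathway is a known route of vasoconstriction.

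Expression was deposited as FPKM (fragments per kilobase of transcript, adjusted to library size), which allows levels of different genes to be compared per length. The whole fragments behind these values could be recovered and came to between 6417941 and 7468528 in the knockdown libraries and between 8171176 and 12065991 in the control libraries. Control libraries 2 and 3 were much alike (median chi-square per gene of 0.756, where sampling alone gives 0.455), while every other pair of libraries had a median of 3.75 to 14.9. Nat10 itself (ENSRNOG00000008663) stood at 4.38, 3.68 and 4.58 FPKM in the knockdown libraries, against 7.69, 9.22 and 9.95 FPKM in the control libraries. The groups did not overlap, and the log2 change of -0.93 (SE 0.19) had a limma adjusted p of 0.227. Of 10 smooth muscle markers, 9 were above a mean of 1 FPKM, and their summed level was 879 to 3837 FPKM in the knockdown libraries and 5199 to 6818 FPKM in the control libraries. Of 7 endothelial markers measured, Egfl7 alone was above 1 FPKM and Cldn5 was at 0 in all 6 libraries. Of 8 leukocyte markers, Cd68 and Cd14 were above 1 FPKM and Cd3e was at 0.

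No gene of the 13450 tested, and so none of the 9 tested members, passed an adjusted p of 0.05 in limma (0 called higher and 0 called lower; background 0%). All 9 tested members had a negative log2 change (knockdown minus control, on the log2(FPKM + 1) scale), and 51.4% of all tested genes did. At an unadjusted limma p under 0.05, 6 members were lower in knockdown libraries, namely Myh11, Myh10, Myl9, Mylk, Rock1 and Rock2, and 6.95% of all tested genes were (935 genes). In the other direction there were 0 members, beside 5.53% of all tested genes (744 genes). In 8 of the 9, all but Myl6, every knockdown library lay below every control library, which held for 10.9% of all tested genes. The reverse order was seen in 0 members and in 9.63% of all tested genes. Both counts were read from FPKM as deposited and can depend on the scaling between libraries, whose summed FPKM ran from 484339 to 624545. The gap between the groups was only 0.635% of the lowest control for Ppp1r12a and 2.73% for Rhoa, so their order is the least secure. The median log2 change was -0.62 over the members and -0.01 over all tested genes. Voom on the recovered fragments also called 0 genes. There the genes at an unadjusted p under 0.05 split into 559 lower and 1110 higher, so 33.5% of them were lower, against 55.7% in the fit on FPKM. That scaling put the median of all genes at 0.14 and the members at -0.47, which is -0.61 relative to all genes. Fewer cells of a type and less RNA per cell cannot be told apart in these bulk libraries.

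**Figure D1:**
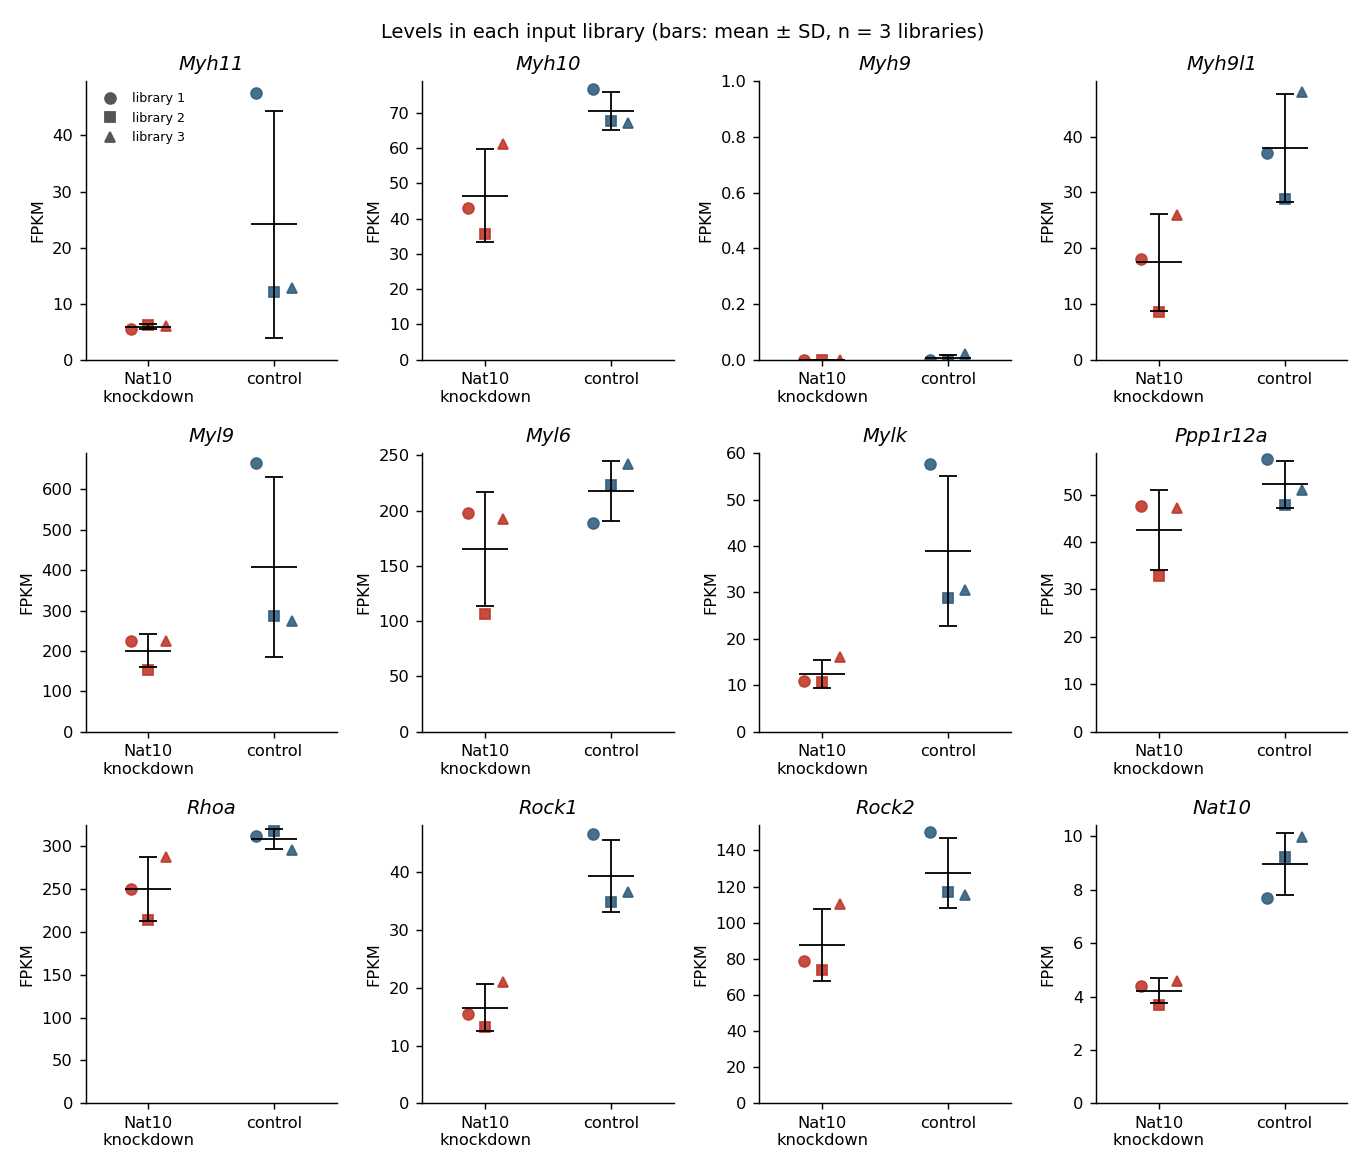
FPKM (vertical axes, from 0) of the 10 genes, of Myh9l1 and of Nat10 in each input library, with Nat10 knockdown libraries left of control libraries; symbols mark the library number, and the bars give the mean ± SD over 3 libraries. The knockdown points lie below all control points for each gene shown except Myl6, where the groups overlap, and Myh9, which is at or near 0; control library 1 stands apart for Myh11, Myl9 and Mylk.

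Ordered by mean level in the knockdown libraries, Rhoa, Myl9 and Myl6 came first at 249.9, 200.4 and 165 FPKM. Rock2 followed at 87.8 FPKM, then Myh10 at 46.5, Ppp1r12a at 42.5, Rock1 at 16.5, Mylk at 12.5 and Myh11 at 5.92 FPKM. In the control libraries the order was the same except that Myl9, at 408 ± 223 FPKM, stood ahead of Rhoa, at 308 ± 11.3 FPKM (SD, n = 3). Rhoa and Myl9, Myl9 and Myl6, Myh10 and Ppp1r12a, and Rock1 and Mylk were neighbours whose ranges of mean ± SD overlapped in the knockdown libraries. In the control libraries the same held for Myl9 and Rhoa, for Rock1 and Mylk, and for Mylk and Myh11. In both groups the light chain and GTPase transcripts had a higher mean level per length than those of the kinases and heavy chains.

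Among the heavy chains, Myh11 (ENSRNOG00000057880), the smooth muscle myosin heavy chain, stood at 5.43, 6.28 and 6.07 FPKM in the knockdown libraries, against 47.5, 12.1 and 12.7 FPKM in the control libraries. The groups did not overlap, the knockdown libraries were close together, and control library 1 was far above the other 2 controls. Its log2 change of -1.58 (SE 0.49), the lowest among the members, had an unadjusted limma p of 0.0145 and an adjusted p of 0.314. Without control library 1 it was -0.96 (SE 0.20, adjusted p = 0.464). Counted from the lowest log2 change, Myh11 ranked 71 of 13450 tested genes. The 9 tested markers of smooth muscle chosen for the label check had a median log2 change of -1.17, all 9 negative and 7 at an unadjusted p under 0.05. Of all tested genes, 51.4% were negative and 6.95% were lower at that p. Acta2 (-2.22), Tpm2 (-2.03) and Lmod1 (-1.75) were below Myh11, Tagln was at -1.58, and Cald1 (-1.17), Myocd (-1.08), Cnn1 (-0.74), Smtn (-0.67) and Synpo2 (-0.16) were above it. Without control library 1, the median of these markers was -1.20. The 7 measured markers of adventitial fibroblasts had a median of -0.57, with summed levels of 194 to 266 FPKM in the knockdown libraries and 297 to 319 FPKM in the control libraries. The part of either marker group in the members' values was not tested.

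Myh10 (ENSRNOG00000002886), the non-muscle heavy chain IIB, stood at 42.9, 35.6 and 61.0 FPKM in the knockdown libraries, against 76.8, 67.6 and 66.9 FPKM in the control libraries. Knockdown library 3 came within 8.83% of the lowest control, and the other 2 knockdown libraries were well below. Its means were 46.5 ± 13.1 FPKM in knockdown libraries and 70.5 ± 5.49 FPKM in control libraries (SD, n = 3 each), with a log2 change of -0.62 (SE 0.22), an unadjusted limma p of 0.0263 and an adjusted p of 0.355. It was the most abundant heavy chain row in all 6 libraries.

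Myh9 (ENSRNOG00000004860), the non-muscle heavy chain IIA, was listed at 0 in all 3 knockdown libraries and in control libraries 1 and 2, with 0.0194 FPKM, or 1 fragment, in control library 3. It was below the filter of a mean of 1 FPKM and was not tested. The table holds a second row, Myh9l1 (ENSRNOG00000049236), which RefSeq lists as another name of Myh9 and which lies near it on chromosome 7, so how the reads of this gene were assigned is uncertain. Myh9l1 stood at 18.0, 8.58 and 25.9 FPKM in the knockdown libraries, against 37.1, 28.8 and 48.0 FPKM in the control libraries. Its groups did not overlap either, with a log2 change of -1.17 (SE 0.39) and a limma adjusted p of 0.333. The value of 0 for Myh9 is therefore given as listed and not as absence of the transcript.

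The light chains were the most abundant myosin transcripts. Myl9 (ENSRNOG00000020246), the smooth muscle regulatory light chain that the kinase phosphorylates, stood at 224, 154 and 223 FPKM in the knockdown libraries, against 665, 286 and 273 FPKM in the control libraries. Control library 1 was again far above the other controls, and the highest knockdown library lay 18.0% below the lowest control. The log2 change of -0.91 (SE 0.38) had an unadjusted limma p of 0.0468 and an adjusted p of 0.394, and without control library 1 it was -0.50 (SE 0.26, adjusted p = 0.543). Myl6 (ENSRNOG00000054140), the essential light chain of smooth muscle and non-muscle myosin, stood at 198, 106 and 192 FPKM in the knockdown libraries, against 189, 223 and 242 FPKM in the control libraries. It was the tested member whose groups overlapped: knockdown libraries 1 and 3 were above control library 1. Its log2 change was -0.44 (SE 0.28, limma adjusted p = 0.554).

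Mylk (ENSRNOG00000002215), the myosin light chain kinase gene, stood at 10.9, 10.6 and 16.0 FPKM in the knockdown libraries, against 57.7, 28.7 and 30.5 FPKM in the control libraries. The highest knockdown library lay 44.3% below the lowest control, so the groups were well apart with or without control library 1. It averaged 12.5 ± 3.03 FPKM in knockdown libraries and 39.0 ± 16.2 FPKM in control libraries (SD, n = 3 each), so the knockdown mean was 32.05% of the control mean. Its log2 change of -1.52 (SE 0.30) had an unadjusted limma p of 0.00156 and an adjusted p of 0.227, and by p it ranked 91 of 13450 genes. Without control library 1 it was -1.20 (SE 0.24). Mylk encodes several products from different start sites, which a gene-level value does not separate.

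Ppp1r12a (ENSRNOG00000004925), the targeting subunit of myosin phosphatase, stood at 47.6, 32.8 and 47.2 FPKM in the knockdown libraries, against 57.6, 47.9 and 51.1 FPKM in the control libraries. The groups did not overlap by only 0.635% of the lowest control, and knockdown library 2 alone was clearly lower. Its log2 change was -0.30 (SE 0.20, limma adjusted p = 0.562), and without knockdown library 2 it was -0.13 (SE 0.14).

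Rhoa (ENSRNOG00000050519), the GTPase at the head of the pathway, stood at 249.5, 213 and 287 FPKM in the knockdown libraries, against 312, 317 and 295 FPKM in the control libraries. Knockdown library 3 lay 2.73% below the lowest control. Its log2 change was -0.31 (SE 0.19), with a limma adjusted p of 0.545, the second smallest in size among the members.

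Rock1 (ENSRNOG00000031092), the first of the RhoA-activated kinases, stood at 15.4, 13.2 and 21.0 FPKM in the knockdown libraries, against 46.5, 34.8 and 36.6 FPKM in the control libraries. All 3 knockdown libraries were far below all 3 controls, the nearest by 39.5% of the lowest control, and control library 1 was less extreme here than for Myh11 or Myl9. Rock1 averaged 16.5 ± 4.07 FPKM in knockdown libraries and 39.3 ± 6.28 FPKM in control libraries (SD, n = 3 each), so the knockdown mean was 42.1% of the control mean. The log2 change of -1.21 (SE 0.22) had an unadjusted limma p of 0.000823, rank 55 of 13450 genes, and an adjusted p of 0.201. It was -1.09 (SE 0.24) without control library 1 and -0.95 (SE 0.19) without both control library 1 and knockdown library 2, an alternative chosen after seeing the data.

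Rock2 (ENSRNOG00000004496), the second kinase, is more abundant in these cells, at 78.8, 73.9 and 111 FPKM in the knockdown libraries, against 150.2, 117 and 116 FPKM in the control libraries. Knockdown library 3 lay 4.20% below the lowest control and the other 2 were further down. Its log2 change of -0.55 (SE 0.22) had an unadjusted limma p of 0.0399 and an adjusted p of 0.384. Rock1 and Rock2 are paralogs, and the labels do not say how reads shared between paralogs were counted.

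**Figure D2:**
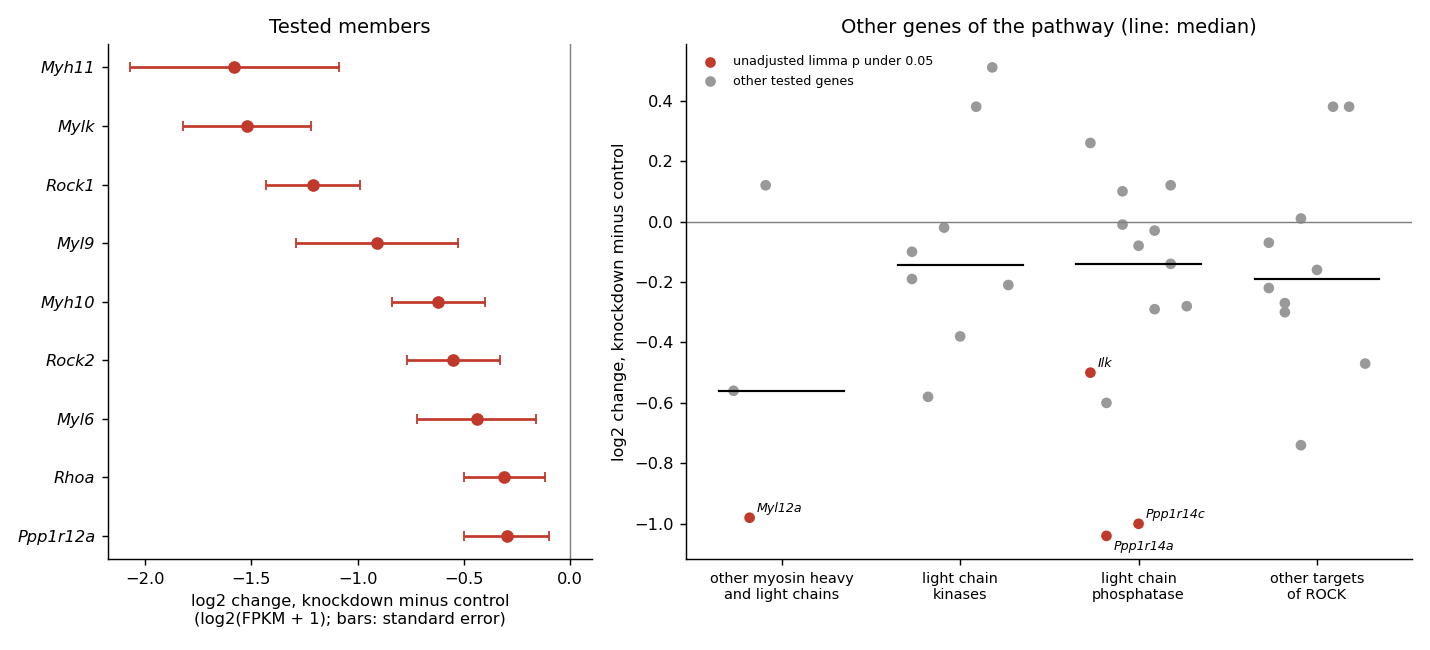
Left, log2 change (knockdown minus control, on log2(FPKM + 1)) of the 9 tested members with standard errors; right, the same quantity for the tested genes of the 4 pathway lists, with a line at each list's median and red points for an unadjusted limma p under 0.05. All 9 members lie below 0, between -1.58 for Myh11 and -0.30 for Ppp1r12a, while the list medians lie between -0.56 and -0.14; no point passed an adjusted p of 0.05.

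Ratios between members within a library do not depend on the scaling between libraries. Rock1 made up 16.4%, 15.1% and 16.0% of the summed Rock1 and Rock2 level in the knockdown libraries, against 23.6%, 22.9% and 24.1% in the control libraries. The spread within each group was under 1 percentage point (SD 0.634 and 0.577) while the difference of the means was -7.71 points (knockdown minus control), and library 1 of the controls did not stand apart. The exact two-sided permutation p was 0.1, the smallest that 3 libraries against 3 allow, and 0.167 after Benjamini-Hochberg adjustment over the 5 ratios compared. The level of Mylk divided by that of Ppp1r12a, kinase over phosphatase subunit, was 0.229, 0.323 and 0.339 in the knockdown libraries, against 1.00, 0.600 and 0.598 in the control libraries. The groups did not overlap (exact permutation p = 0.1, adjusted 0.167), and control library 1 was the highest.

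Myh11 made up 11.2%, 15.0% and 9.04% of the summed Myh11, Myh9 and Myh10 rows in the knockdown libraries, against 38.2%, 15.2% and 16.0% in the control libraries, where knockdown library 2 nearly reached control library 2 (exact permutation p = 0.1, adjusted 0.167). The difference of the means was -11.4 percentage points with all libraries and -3.84 without control library 1. With the Myh9l1 row added, which was chosen after seeing the data, the shares were 8.19%, 12.4% and 6.52% in the knockdown libraries, against 29.5%, 11.2% and 9.97% in the control libraries. These groups overlapped (exact permutation p = 0.3, adjusted 0.375), so the heavy chain share depended on the row with the uncertain reads and on 1 library. Myl9 made up 25.2%, 16.2% and 19.0% of the summed Myl9, Myl12a and Myl12b level in the knockdown libraries, against 38.1%, 20.1% and 19.7% in the control libraries, with overlapping groups (exact permutation p = 0.5).

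**Figure D3:**
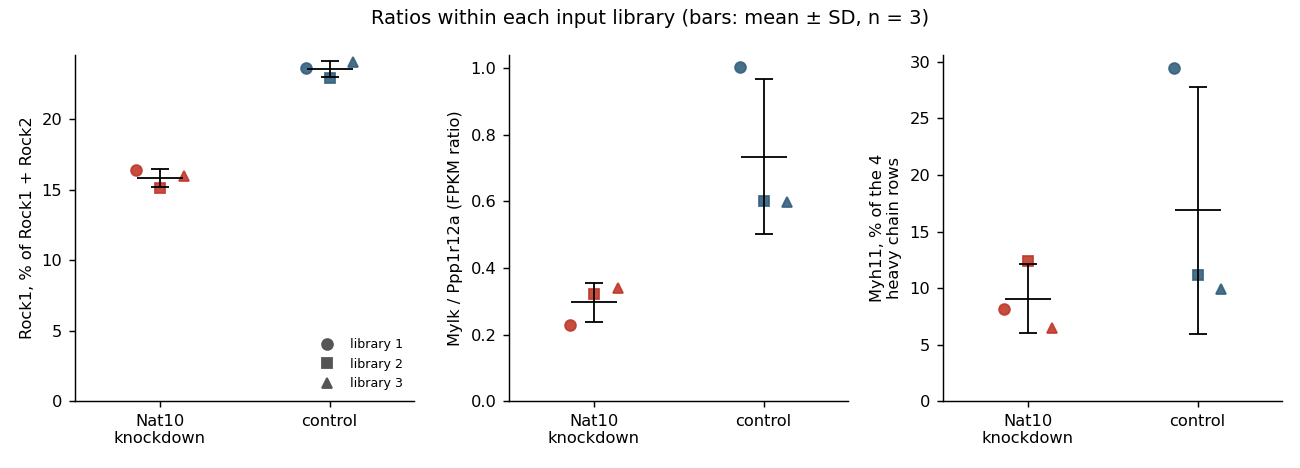
Ratios of FPKM within each input library (vertical axes, from 0), Nat10 knockdown left of control, with the mean ± SD over 3 libraries: Rock1 as a percent of Rock1 plus Rock2, Mylk divided by Ppp1r12a, and Myh11 as a percent of the 4 rows Myh11, Myh9, Myh9l1 and Myh10. The Rock1 share is near 16% in all knockdown libraries and near 23% to 24% in all controls, whereas the Myh11 share overlaps between the groups and control library 1 stands apart.

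The stretch of DNA before 1 listed start of the gene is given for the members with the smallest p, Rock1 and Mylk, and for Rock2, the paralog of Rock1. Whether these cells use the listed starts was not tested. Windows from RefSeq, on assembly GRCr8, were used for 8 of the 10 genes, all but Myh11 and Myl9. Each line gives the 250 bases before the start, 5′ to 3′ on the strand of the gene, and capitals mark GGGCGG (the core of a GC box) and CATTCC (the core of the site bound by TEAD factors), searched on both strands, so that CCGCCC is GGGCGG on the other strand. The windows are Mylk at chr11:79498575-79498824 (minus strand), Rock1 at chr18:1509148-1509397 (minus strand) and Rock2 at chr6:45407866-45408115 (plus strand).
Mylk: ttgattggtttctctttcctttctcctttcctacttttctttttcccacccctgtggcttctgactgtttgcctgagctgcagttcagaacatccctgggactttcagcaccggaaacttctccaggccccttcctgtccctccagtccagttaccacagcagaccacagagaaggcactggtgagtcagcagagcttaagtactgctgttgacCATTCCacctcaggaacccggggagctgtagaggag
Rock1: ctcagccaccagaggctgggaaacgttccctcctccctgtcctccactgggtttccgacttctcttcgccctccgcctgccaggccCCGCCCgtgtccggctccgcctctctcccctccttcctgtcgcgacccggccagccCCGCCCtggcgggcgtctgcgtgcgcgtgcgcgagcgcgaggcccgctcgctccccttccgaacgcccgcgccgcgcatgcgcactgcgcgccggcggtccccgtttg
Rock2: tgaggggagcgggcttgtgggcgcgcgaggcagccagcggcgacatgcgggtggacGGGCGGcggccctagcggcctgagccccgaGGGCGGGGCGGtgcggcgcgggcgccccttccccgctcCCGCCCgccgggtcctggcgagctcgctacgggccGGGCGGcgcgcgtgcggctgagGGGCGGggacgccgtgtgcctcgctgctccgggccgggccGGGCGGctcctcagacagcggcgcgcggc

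Mylk had 1 match to CATTCC, located 36 bases before the start, and none to the other motif, and its GC content was 52.4%. Rock1 had 2 matches to GGGCGG and Rock2 had 7, of which some in Rock2 overlap. Their GC content was 74.4% for Rock1 and 82.8% for Rock2, and the median over 33469 RefSeq promoters was 51.2%. GGGCGG occurs in 30.5% of all these windows, CATTCC in 12.1%, and the CArG box, to which serum response factor binds, in 1.5%. None of the windows of these 8 genes held a CArG box, which says only that these letters are not within the 250 bases. The TATA motif TATAAA, searched on both strands, was found in 1 member window, the first of those listed for Myh9, and in 12.9% of all windows. The match in Myh9 was on the other strand, as TTTATA, 179 bases before the start.

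Other genes of the pathway were taken from 4 lists grouped by function. In the list of other myosin heavy and light chains, 14 of 18 genes were in the table and 3 were tested, of which 2 had negative and 1 a positive log2 change, and 1 was at an unadjusted limma p under 0.05. That gene, Myl12a, a non-muscle regulatory light chain, averaged 426 ± 219 FPKM in knockdown libraries and 773 ± 113 FPKM in control libraries (log2 change -0.98, adjusted p = 0.387). Myl12b, its close paralog, averaged 379 ± 160 FPKM in knockdown libraries and 336 ± 89.9 FPKM in control libraries (SD, n = 3 each), with a log2 change of 0.12 whose sign turned on which library was left out. Myh7b stood near 1 FPKM, with a log2 change of -0.56.

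Of 16 other genes of the light chain kinases and their activators, 14 matched 1 row of the table each and 8 were tested, with 6 negative and 2 positive log2 changes, a median of -0.14 (0.01 under voom and 0.02 without knockdown library 2) and none at an unadjusted p under 0.05. Those with the smallest p were Cdc42bpa and Cdc42bpg, which encode the ROCK-related kinases MRCK alpha and gamma, at -0.58 and -0.38, Dapk3, which encodes the calcium-independent kinase ZIPK, at 0.51, and Cit, which encodes citron kinase, at 0.38. Mylk, at -1.52, had a lower log2 change than each of these 8.

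Of the light chain phosphatase and its regulators, 13 of 16 genes were tested, with 10 negative and 3 positive log2 changes, a median of -0.14 and 3 at an unadjusted limma p under 0.05, all lower in knockdown libraries. The sign of that median turned on the fit and the libraries, with 0.02 under voom, 0.01 without control library 2 and 0.10 without knockdown library 2. Ppp1r14a, which encodes CPI-17, an inhibitor of myosin phosphatase in smooth muscle, stood at 21.1, 23.0 and 20.2 FPKM in the knockdown libraries, against 61.0, 39.5 and 37.9 FPKM in the control libraries. The groups were well apart, with a log2 change of -1.04 (SE 0.22) and an adjusted p of 0.242. Ppp1r14c, a related inhibitor, averaged 3.61 ± 1.05 FPKM in knockdown libraries and 8.13 ± 1.25 FPKM in control libraries (log2 change -1.0), and Ilk, integrin-linked kinase, averaged 68.4 ± 15.4 FPKM in knockdown libraries and 95.6 ± 1.43 FPKM in control libraries (log2 change -0.50). Mprip, which encodes a partner of the targeting subunit of myosin phosphatase, averaged 90.0 ± 30.1 FPKM in knockdown libraries and 133.6 ± 19.9 FPKM in control libraries (log2 change -0.60), and the groups overlapped.

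Other ROCK targets gave 7 negative and 3 positive log2 changes of 10 tested, a median of -0.19 (0.04 without knockdown library 2 and 0.07 without both it and control library 1) and none at an unadjusted p under 0.05, with Limk2 at 0.38, Vim at -0.74, Rdx at -0.30 and Add1 at -0.22. In these 4 lists no gene passed an adjusted p of 0.05. As background for the list counts, 51.4% of all tested genes had a negative log2 change. At an unadjusted limma p under 0.05, 6.95% of all tested genes were lower in knockdown libraries and 5.53% were higher.

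The members did not differ from library to library by the same amount. Set against the mean log2 level of the controls, the median member stood at -0.70, -1.03 and -0.20 in knockdown libraries 1 to 3, and at 0.24, -0.12 and -0.09 in control libraries 1 to 3. Knockdown library 3 was thus nearest to the controls and knockdown library 2 farthest, while Myh11, Mylk and Rock1 were low in all 3. Without both control library 1 and knockdown library 2, Myh11 stood at -0.99 and Mylk at -1.11, while Myl9 was at -0.32, Rock2 at -0.31 and Ppp1r12a at -0.06. The median over the members was then -0.32, and 3 members remained at an unadjusted limma p under 0.05 instead of 6, namely Rock1, Mylk and Myh11. In that fit 8.05% of all tested genes were lower at that p, beside 6.95% with all libraries. With library quality weights, in which control library 1 and knockdown libraries 2 and 3 counted least, limma called 120 genes higher and 215 lower, among them Rock1 (log2 change -1.12, adjusted p = 0.0321) and Mylk (-1.33, adjusted p = 0.0465). The largest weights, 3.8 and 3.57, went to control libraries 2 and 3, which were much alike. With these 2 libraries averaged into 1 instead, limma called 0 genes. Rock1 then stood at -1.28 and Mylk at -1.67, each with an adjusted p of 0.7335.

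Genes with the most similar profile over the 6 input libraries were found by the Euclidean distance between log2(FPKM + 1) profiles, each centred on its mean, which is a description. For Myl9 the nearest were Fbln5, the elastic fibre protein fibulin-5, at a distance of 0.29, and Fgf18, a fibroblast growth factor, at 0.33. For Mylk they were Tmem258b at 0.34 and Selenop, the selenium transport protein, at 0.45. For Rock1 they were Dnajc30 at 0.14 and Grb14, a receptor adaptor, at 0.21, and for Myh11 Cdo1, cysteine dioxygenase, at 0.41 and RGD1564664 at 0.43. Myh9 was not tested and has none. Among the members themselves, Myh10 and Rock2 were nearest to each other (0.22), and Rock1 was the nearest member to Mylk (0.61) with 10 other genes nearer.

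The ac4C lists give peaks per library with the authors' p and no enrichment. In control lists 1 and 2 most peaks carry 1 shared p, 0.045 for 26881 of 29998 peaks and 0.046 for 27673 of 29593 peaks, and these were left out where stated. The knockdown lists held 2592 to 3111 peaks, and the control lists 1920 to 3479 without the shared p. Members with a peak numbered 6, 5 and 8 in the knockdown lists, against 6, 4 and 6 in the control lists (exact permutation p = 0.6), or 5, 3 and 6 in the control lists without the shared p (exact permutation p = 0.5). The number of members with a peak was thus not detectably different with 3 lists a group. All 9 members that pass the expression filter had a peak in at least 1 knockdown list (background 33%) and 5 in at least 1 control list without the shared p (background 34%). In all 3 knockdown lists there were 3, Ppp1r12a, Rock1 and Rock2 (background 4.72%), and in all 3 control lists 3, Mylk, Ppp1r12a and Rock2 (background 4.29%). Ppp1r12a and Rock2 were in all 6 lists, as were 2.09% of tested genes. A list with no peak says only that none was called there. The backgrounds, here and for the NAT10 RIP lists, are shares of all tested genes, not matched to the members in level or length.

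**Figure D4:**
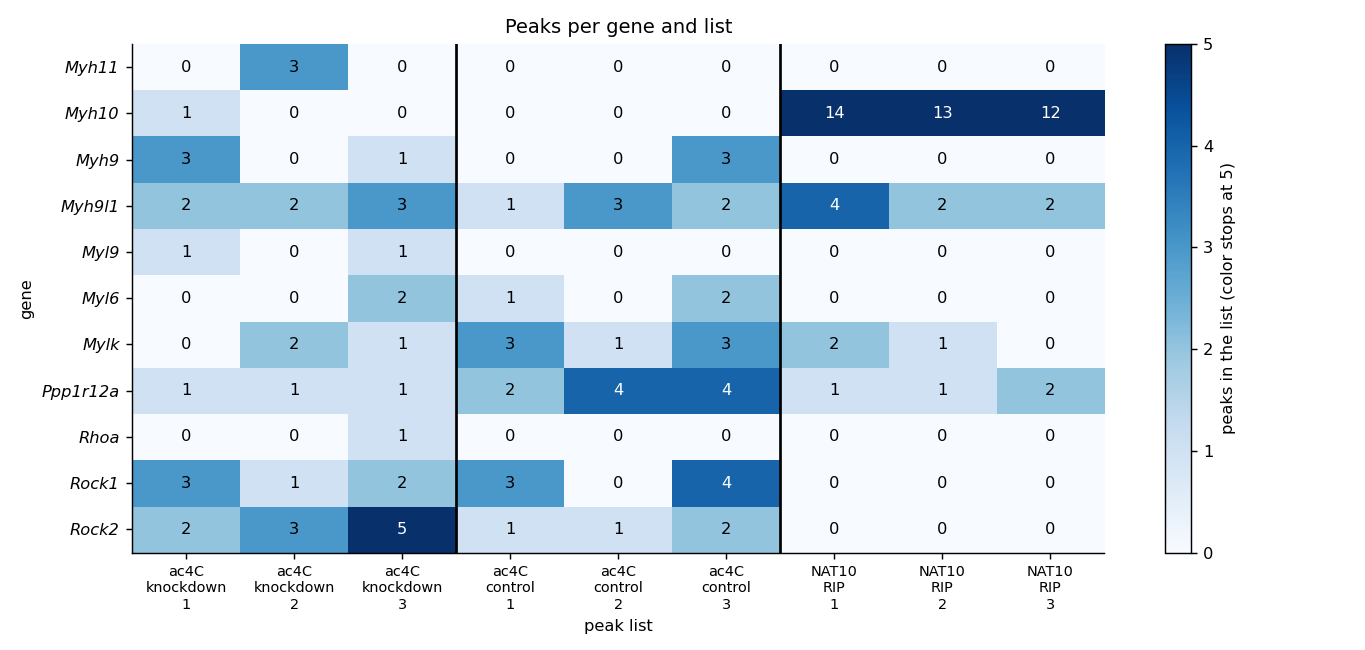
Number of peaks (figures in the cells; color stops at 5) per gene (rows) and peak list (columns): ac4C lists of knockdown libraries, then of control libraries without the peaks at the shared p, then NAT10 RIP lists. Ppp1r12a and Rock2 hold a peak in all 6 ac4C lists, and Myh10 holds 12 to 14 peaks in each NAT10 RIP list beside 1 ac4C peak.

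Positions of peaks are given as in the lists, counted from 1, on rn6, the only rat build named in the submitters' processing notes. Ppp1r12a had the 1 region shared by all 6 ac4C lists, chr7:51420628-51425420 on the minus strand, merged over the lists. The part below chr7:51422566 comes only from a second peak in control list 3. Where at least 0.5 of the shorter peak had to be shared, the region was chr7:51422566-51425420, still in all 6 lists. The authors' p there was 4e-56 in knockdown list 1, 4.5e-09 in list 2 and listed at 0 in list 3, and 6.3e-38, 7.9e-06 and 1.4e-10 in control lists 1 to 3. Its peak is therefore present in both groups, and the knockdown lists hold no other Ppp1r12a peak, whereas the control lists hold 1 to 3 more each. Rock1 had a region at chr18:1286813-1292769 (minus strand) in 5 lists, all but control 2. Rock2 had a region at chr6:42231266-42246116 (plus strand) in all 3 knockdown lists and control list 3. At the far end of Rock2 a region at chr6:42288469-42288799 was in all 3 knockdown lists and control lists 2 and 3, but only by narrow overlaps. Where peaks were merged only if they shared at least 0.5 of the shorter one, it was divided into chr6:42288589-42288799, in the 3 knockdown lists, and chr6:42288469-42288619, in control lists 2 and 3.

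Myl9 was the one member with peaks in 2 knockdown lists and in no control list (background 2.42%). Its peak, chr3:152863781-152863960 on the plus strand, was called at the same bounds in knockdown lists 1 and 3, with an authors' p of 5e-17 and 5e-29. Mylk had peaks between chr11:69013080 and chr11:69014486 (minus strand) in all 3 control lists and in knockdown lists 2 and 3, made up of 4 separate regions of which none was in more than 3 lists, and a further region at chr11:69099454-69099664 in knockdown list 2 and control list 3. Myh11 had 3 peaks, all in knockdown list 2, where its p ranged from 0.00014 to 0.013, and none in the other 5 lists. Myh10 had 1 peak, in knockdown list 1, and Rhoa 1, in knockdown list 3. Myl6 had peaks in knockdown list 3 and control lists 1 and 3. Myh9 had peaks with a p other than the shared one in knockdown lists 1 and 3 and control list 3, the lowest at 1e-176 in control list 3, although its input level is listed at 0. Myh9l1 had peaks in all 6 lists.

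NAT10 RIP lists, which come from untreated cells, had a peak in at least 1 list for Myh10, Mylk and Ppp1r12a, 3 of the 9 members that pass the expression filter (background 5.93%), and in all 3 lists for Myh10 and Ppp1r12a (background 2.68%). Myh10 was the bound member that stood apart, with 14, 13 and 12 peaks in lists 1 to 3, covering 3825, 3150 and 2675 nt, or 50.1%, 41.3% and 35.1% of its recovered length of 7630 nt. The lists held 586, 563 and 548 genes with a median of 1 to 2 peaks, and Myh10 ranked 28, 24 and 27 by number of peaks. Of its regions 8 were in all 3 lists, the widest running from chr10:55283593 to chr10:55332061 on the plus strand, where the peak of each list covered only 225 to 275 nt. The longest peaks of lists 1 to 3, covering 1225, 1400 and 925 nt, lay in the region chr10:55352506-55379221. The authors' log2 enrichment of the Myh10 peaks lay between 0.87 and 1.59, with a median of 1.09, 1.06 and 1.15 in lists 1 to 3, and the median over all peaks of those lists was 1.09, 1.07 and 1.09.

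**Figure D5:**
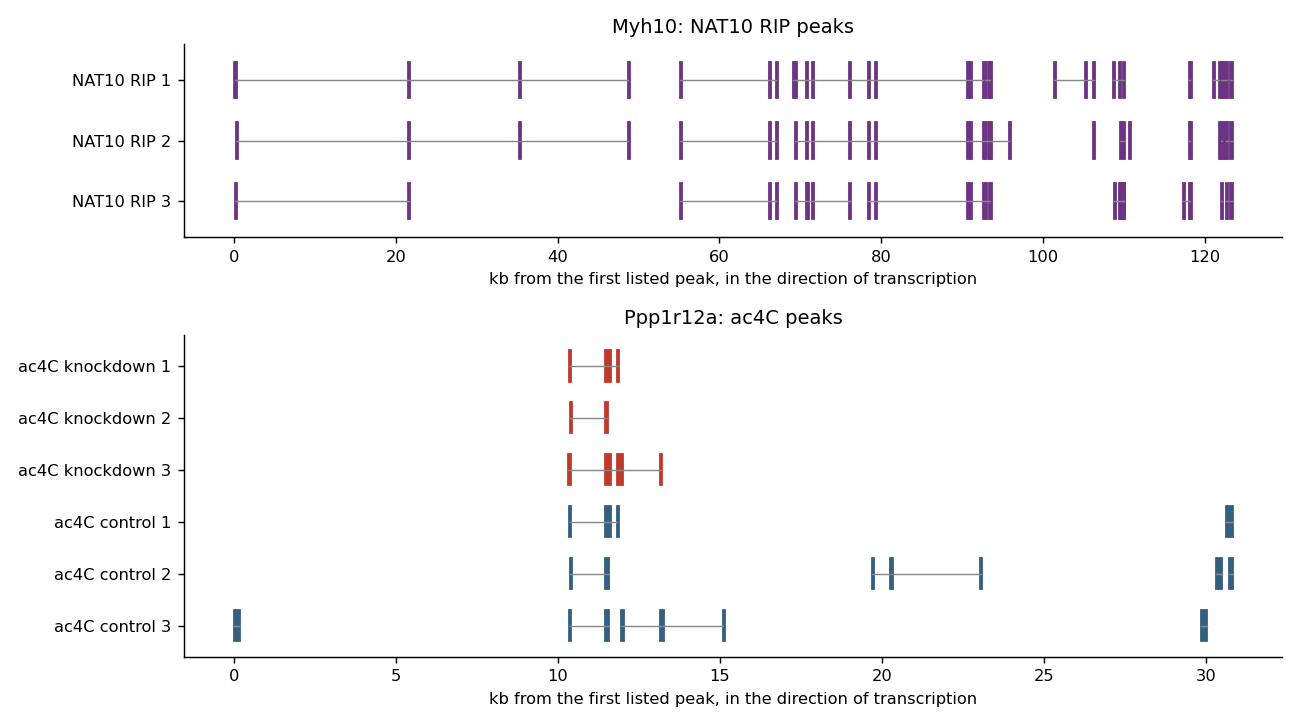
Peak blocks (filled bars, joined by a line within a peak; the shortest are widened to be visible) by distance in kb from the first listed peak of the gene, for Myh10 in the 3 NAT10 RIP lists and for Ppp1r12a in the ac4C lists of the knockdown and control libraries. For Myh10, 8 of 13 merged regions are in all 3 lists, and the Ppp1r12a peak at about 10 to 12 kb is in all 6 lists.

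Ppp1r12a had 1, 1 and 2 RIP peaks, of 75 to 125 nt in all per list, at a log2 enrichment of 0.90 to 1.13, and Mylk had 2, 1 and 0, at 1.11 to 1.65. Myh9l1 had 4, 2 and 2, among them chr7:119043412-119071556 (minus strand) in all 3 lists. Myh11, Myh9, Myl9, Myl6, Rhoa, Rock1 and Rock2 had none. The ac4C peaks of the knockdown and control lists together, without those at the shared p, were set against the RIP peaks. Those that overlapped a RIP peak by at least 1 base were 2 of 13 for Ppp1r12a and 0 of 10 for Mylk. They were 0 of 1 for Myh10 and 3 of 13 for Myh9l1. Both overlapping Ppp1r12a peaks were from control lists, 1 in list 2 and 1 in list 3. RIP peaks covered 1.3% to 2.17% of the recovered length of Ppp1r12a per list. For Mylk they covered 0.624% to 1.25% in the lists that held any. The overlap expected by chance was not computed, so the counts cannot show whether overlap was rare. Side by side, Rock1, with the smallest p in the expression comparison, had no RIP peak, Mylk, with the next smallest, had 3 over the 3 lists, and Myh10, with 39 RIP peaks over the 3 lists, had a log2 change of -0.62 and 1 ac4C peak. Ppp1r12a, with 4 RIP peaks and 13 ac4C peaks, had a log2 change of -0.30. The other tested members without a RIP peak ranged from -1.58 for Myh11 to -0.31 for Rhoa. A relation between NAT10 peaks and expression was not tested.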

How the data were processed

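Input RNA, ac4C immunoprecipitated RNA and NAT10-bound RNA were analysed from tables that the authors deposited, with groups and library numbers taken from the sample titles. Replicates are called biological repeats, but nothing says that separate animals were used; a p-value here therefore reflects only the variation among these libraries, which may be technical. FPKM per Ensembl gene for the 6 input libraries were deposited by the authors. For each ac4C library the authors deposited a peak list with 1 p-value per peak, not said to be raw or adjusted, and for each NAT10 RIP library a peak list with a log2 enrichment and p-values, per the file headers. The non-immunoprecipitated RIP library was not analysed here. The submitters' processing notes name HISAT2 2.1.0, cutadapt 2.5, HOMER 4.10.4, DESeq2 and featureCounts 1.6.3, with builds rn6, GRCm38 and GRCh38, and no role for each. Strand handling, the treatment of multi-mapping reads and the RIP control: not given in the sources used here.

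Genes with a mean of at least 1 FPKM (13450) were transformed to log2(FPKM + 1) and fitted with limma 3.58.1 (R 4.3.3, trend on the mean level, two-sided tests), with Benjamini-Hochberg adjustment over all of them at 0.05. The fit was run on simulated data with the same noise for every gene (SD 0.251), set below that of these libraries. That run does not show what the fit can detect here. The log2 changes on the log2(FPKM + 1) scale understate the change of low genes. Whole fragments were recovered for 21401 of the 21401 genes above 0 (relative tolerance 1e-07; 2 of 411 altered profiles also gave whole fragments), and their voom fit served as an alternative, as did other pseudocounts, filters, scalings, library weights, a replicate block and leaving out libraries. Ratios and peak counts were compared by exact permutation of the libraries. Regions were merged across lists by an overlap of at least 1 base. Promoter sequences are from RefSeq, assembly GRCr8. All members were named, as were the 4 genes with the smallest p of each pathway list and the 2 most similar genes of a member. Of the pathway lists chosen, 1 list and 1 gene of another are not reported here. Members and lists were chosen with earlier results of these data known. Symbols of the lists not matched once in the table were not analysed here.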

Additional observations from a re-analysis of the deposited data

How the results depend on the processing

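All 9 tested members kept a negative log2 change under each of the 19 alternatives (171 of 171 values). The number of genes past the threshold was 0 in each direction as reported and 120 higher and 215 lower with library quality weights, and it was 0 to 1 in each direction when a library was left out. Members at an unadjusted p under 0.05, 6 as reported, numbered 3 to 5 when a library was left out (3 without control 1, without knockdown 1 and without knockdown 2) and 3 without control 1 and knockdown 2 together. The share of all tested genes that were lower at that p, 6.95% as reported, ran from 3.45% to 10.7% when a library was left out. It was 8.05% without control 1 and knockdown 2 together. Nat10 moved to -0.97 (limma adjusted p = 0.0399) with quality weights, and to -0.88 (limma adjusted p = 0.7922) with control libraries 2 and 3 averaged. List medians moved to -0.98 for other heavy and light chains with a pseudocount of 0.1, and that of the phosphatase list, -0.14 as reported, ranged from -0.28 to 0.10 when a library was left out and was 0.02 with voom, a fit that puts the median of all genes at 0.14. Myl12b, 0.12 as reported, ranged from -0.20 to 0.33 when a library was left out, reversing to -0.001584 without control 3 and to -0.20 without knockdown 2, and Cit to -0.20 without control 1 and knockdown 2; the cause was not tested. At a log2 enrichment of at least 2, the members with a RIP peak in all lists numbered 0 instead of 2, since fewer peaks remained. Deviations from the group means correlated at -0.21, -0.28 and 0.18 between same-numbered libraries. With 3 libraries a group these values cannot decide whether the replicate numbers pair the samples. With a replicate block 0 genes passed, while 500 genes higher and 676 lower had an unadjusted limma p below 0.05 (744 and 935 without it), 5 members among them. Each expression comparison rests on 3 libraries a group, and Myh11 on as few as 266 fragments in a library.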

Other observations

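Myosin heavy chain genes of striated muscle were at low levels in these cells. Myh6 stood at 3.51, 0.386 and 0.0481 FPKM in the knockdown libraries, against 0, 0 and 0.980 FPKM in the control libraries, and Myh7 at 0, 0.786 and 0.490 FPKM in the knockdown libraries, against 0, 0.0432 and 0 FPKM in the control libraries. Both were below the filter on low values and were not tested. Myh14, the remaining non-muscle heavy chain, stood at 0.123, 0.166 and 0.175 FPKM in the knockdown libraries, against 0.654, 0.231 and 0.218 FPKM in the control libraries, on 6 to 50 fragments. The light chain Myl2 was at 0 in all 6 libraries, and Myl4 averaged 0.749 ± 0.718 FPKM in knockdown libraries and 1.13 ± 0.414 FPKM in control libraries (SD, n = 3 each).

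Of 12 striated muscle markers, 9 matched and 3 were tested. Tnnt3, a fast muscle troponin T gene, averaged 9.57 ± 5.72 FPKM in knockdown libraries and 17.7 ± 2.66 FPKM in control libraries (SD, n = 3 each), with a log2 change of -0.94 and a limma adjusted p of 0.371. Acta1 and Tnnt2 had log2 changes of 0.57 and -0.34. All 6 proliferation markers were tested, with 1 negative and 5 positive log2 changes and none at an unadjusted limma p under 0.05. The lowest p among them was that of Mcm4, a subunit of the replicative helicase, which averaged 25.5 ± 11.4 FPKM in knockdown libraries and 13.8 ± 3.75 FPKM in control libraries (log2 change 0.78, adjusted p = 0.430).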
